A study of Mus musculus with 9 samples.

Results

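Transcripts of 38 autophagy genes were followed in the fast tibialis anterior (TA) muscle at P28. The genes were selected by symbol, with earlier results of these data known. They comprised 18 genes whose symbol is Atg followed by a number, and 20 of 21 genes named one by one for the rest of the pathway, out of 19505 gene symbols on the array. *Optn* was not analysed here. Each of 9 mice, 3 in each of 3 groups, gave 1 total RNA sample and 1 Clariom S Mouse array. Δ1w mice carried a floxed allele of *Mymk* (written 8c in the labels) and *Pax7*CreER, and had received tamoxifen at P0. Δ2w mice had the same alleles and received tamoxifen at P6. Control mice carried floxed *Mymk* without *Pax7*CreER, and the labels record no tamoxifen for them, although the study's methods describe giving it to every mouse. *Mymk* encodes Myomaker, which muscle progenitors need in order to fuse. The Cre acts in satellite cells (muscle stem cells), so the nuclei already inside a fiber keep the gene. The labels give averages of 55 myonuclei per fiber in Δ1w, 100 in Δ2w, and 233 in control mice. The study counted nuclei in isolated fibers of another muscle, the extensor digitorum longus, and those of Δ2w mice at a later age than P28. A LacZ allele of *Mymk* stood beside the floxed one in 1 Δ1w mouse, all 3 Δ2w mice, and 2 control mice, and the mTmG reporter was recorded in 2 Δ1w mice, 3 Δ2w mice, and 3 control mice.

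Autophagy encloses portions of cytoplasm in a membrane and delivers them to the lysosome for breakdown. The ULK1 kinase complex starts the process, a lipid kinase complex built on Beclin 1 and VPS34 marks the site, and ATG9 vesicles with ATG2 and the WIPI proteins supply and shape the membrane. Chains of conjugating enzymes then attach the small ATG8 proteins (the LC3 and GABARAP families) to the membrane, where cargo receptors such as p62 dock, and the lysosome finishes the job. Skeletal muscle depends on this turnover to clear damaged mitochondria and proteins, and both its loss and its excess waste muscle. Abundance of these transcripts is not a measure of autophagic flux, which was not measured on the arrays.

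The deposited signals are on a log2 scale, so a difference of 1 stands for 2-fold. Array medians over 22206 gene rows lay between 6.37 and 6.44. *Mymk* had log2 signals of 8.99, 7.49, and 7.94 in Δ1w, 8.39, 7.67, and 6.70 in Δ2w, and 11.82, 12.03, and 11.61 in control mice. It was lower in each Δ1w and Δ2w mouse than in each control mouse. It is unknown here whether its probes lie in the deleted exons. The 9 fiber genes examined as a check of the tissue, such as *Actn3*, averaged between 18.91 and 19.09 in every mouse, near the ceiling of the arrays. In Δ1w against control muscle 5 of them differed upward and 4 downward, with *Actn3* lowest at −0.37 (adjusted p = 0.298, limma). Among the autophagy genes, none exceeded 19 on any array. *Atg9b* and *Atg13* lay below the median of the negative control probes (5.77 to 6.25 by array) on all 9 arrays, and *Atg14* and *Atg7* did so on 1 array each, so differences in *Atg9b* and *Atg13* cannot be read as differences in a detected transcript. The identifier of the *Atg4a* row carries the chromosome of a pseudogene, *Atg4a-ps*, and may report either.

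The first question was whether any autophagy transcript differed in muscle with fewer myonuclei. None of the 38 genes passed an adjusted p of 0.05 in Δ1w against control muscle (limma, adjusted over all 22206 rows), a comparison in which 1.41% of all rows passed. Differences were above 0 for 18 genes and below 0 for 20, from −0.58 for *Atg2b* to 0.75 for *Gabarapl1*, with a median of −0.07 beside −0.00 for all rows. At an unadjusted p under 0.05 there were 6 genes, 2 higher (*Sqstm1* and *Gabarapl1*) and 4 lower (*Atg2b*, *Atg13*, *Atg4c*, and *Gabarapl2*), against 14% of all rows. The study's methods name an unpaired *t*-test for its measurements in general, and Transcriptome Analysis Console for differential expression on the arrays. That *t*-test gave 4 genes before adjustment (9.7% of all rows) and 0 after it. After adjustment it called 0 of the 22206 rows in every comparison, so its 0 is not particular to the autophagy genes. The arrays measure muscle as a whole, so fewer cells of a type and less RNA per cell cannot be told apart.

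In Δ2w against control muscle 0 of the 38 genes passed, where 0.045% of all rows did. Here 20 differences were above 0 and 18 below, from −0.40 for *Map1lc3a* to 0.70 for *Pik3c3*, with a median of 0.01. *Pik3c3* alone had an unadjusted p under 0.05, against 7.47% of all rows. The *t*-test gave 2 genes before adjustment (7.57% of all rows) and 0 after it (0 of all rows). In Δ1w against Δ2w muscle 0 genes passed (0.0045% of all rows), and 5 had an unadjusted p under 0.05 (8.29% of all rows). These 5 were *Gabarapl1* and *Sqstm1*, higher in Δ1w, and *Gabarapl2*, *Atg14*, and *Atg2b*, lower in Δ1w. The *t*-test gave 2 before adjustment (6.94% of all rows) and 0 after it (0 of all rows). Both models share the same 3 control mice.

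A p that misses the threshold does not show that levels were alike, so the intervals matter. Standard errors of the differences lay between 0.16 and 0.32 on the log2 scale. The 95% confidence interval stayed within 2-fold in either direction for 34 of 38 genes in Δ1w against control muscle. The exceptions were *Atg16l2*, *Atg2b*, *Gabarapl1*, and *Sqstm1*. It stayed within 2-fold for 37 genes in Δ2w against control muscle, *Pik3c3* being the exception, and for 36 genes between the 2 models.

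**Figure D1:**
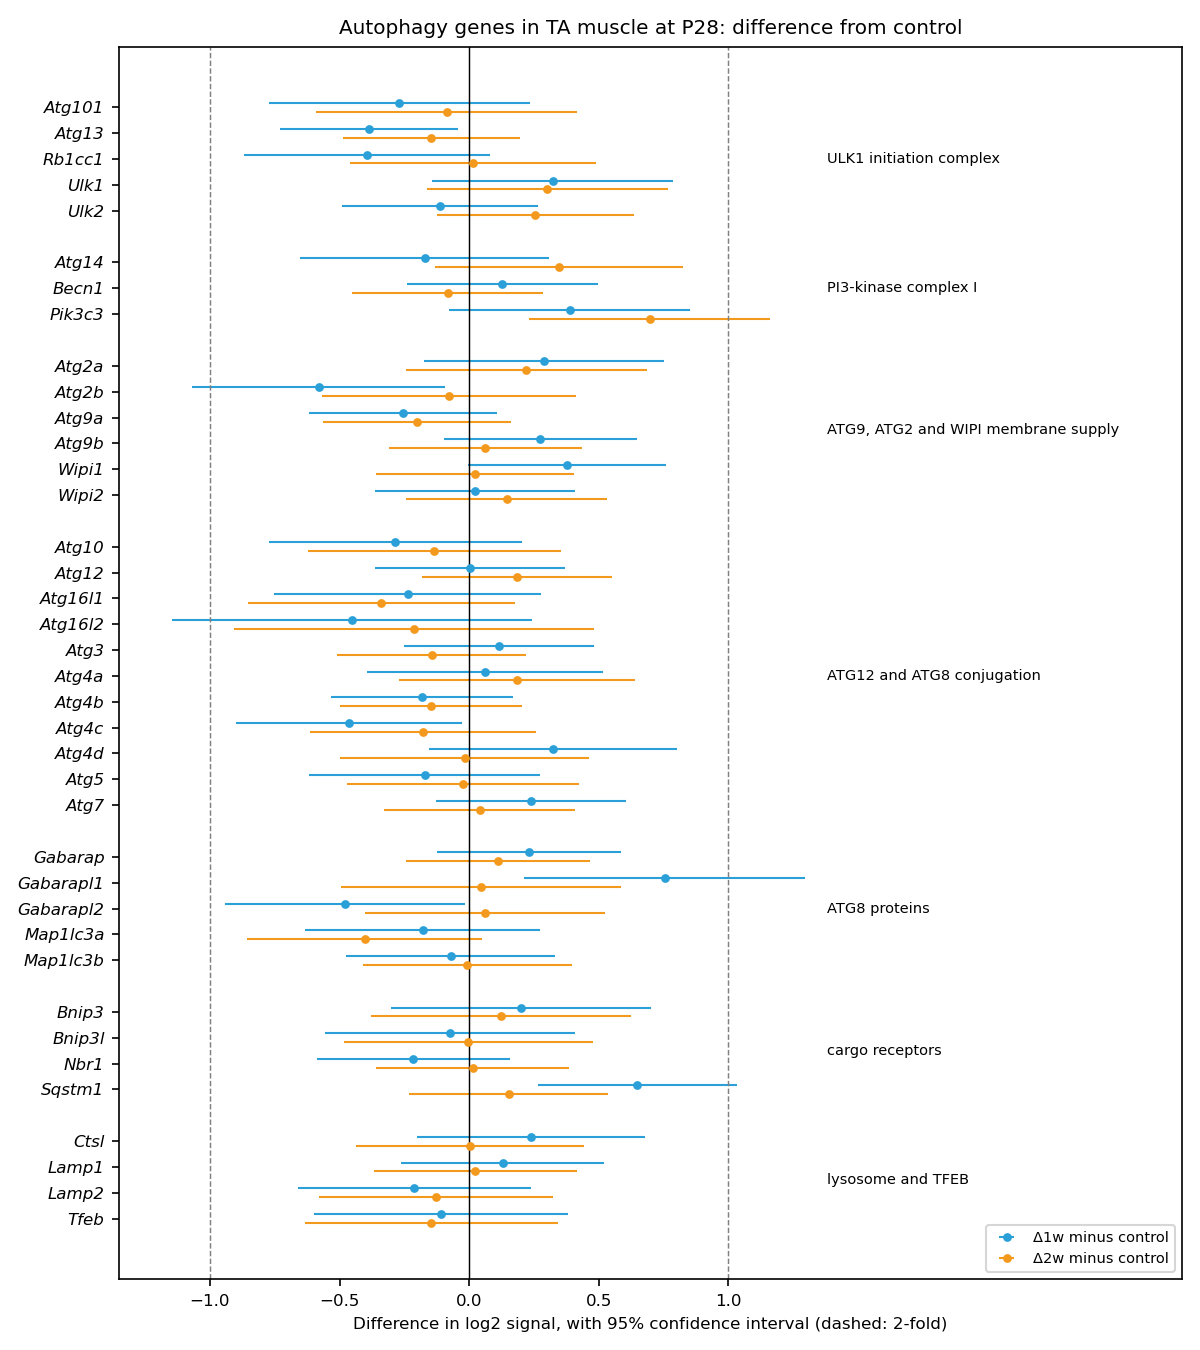
Difference in log2 signal from control for each of the 38 genes, grouped by role, in Δ1w (blue, upper of each pair) and Δ2w (orange) muscle. Points are differences of means of 3 mice and bars are 95% confidence intervals from limma, with dashed lines at 2-fold. *Gabarapl1* (0.75) and *Sqstm1* (0.65) lie highest in Δ1w muscle, and *Pik3c3* (0.70) lies highest in Δ2w muscle.

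*Sqstm1* encodes p62, the receptor that ties ubiquitin-marked cargo to ATG8 proteins and is itself degraded with it. Its log2 signals were 15.04, 14.81, and 14.94 in Δ1w, 14.28, 14.73, and 14.29 in Δ2w, and 14.39, 14.17, and 14.28 in control mice. All 3 Δ1w mice lay above every other mouse, while Δ2w and control mice overlapped and only Δ2w replicate 3 stood above the controls. The difference between Δ1w and control was 0.65 (95% interval 0.26 to 1.03, adjusted p = 0.105, limma), and that between Δ1w and Δ2w was 0.50 (0.11 to 0.88, adjusted p = 0.483). It passed with a trended and robust variance (adjusted p = 0.0338) and in no other of the 21 alternatives, over which the difference ranged from 0.59 to 0.77 and the adjusted p from 0.0338 to 0.326. The other receptors showed smaller differences. *Nbr1*, a relative of p62, had a difference of −0.21 in Δ1w and 0.01 in Δ2w muscle. *Bnip3* and *Bnip3l*, outer membrane receptors for removal of mitochondria, had differences of 0.20 and −0.07 in Δ1w and of 0.12 and −0.00 in Δ2w muscle. Control replicate 1 had the lowest signal of the 9 mice for both, at 11.92 and 12.20.

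The 5 ATG8 proteins, which coat the forming membrane and hold the receptors, did not lie on one side. *Gabarapl1* had log2 signals of 10.01, 10.82, and 10.68 in Δ1w, 9.90, 10.05, and 9.43 in Δ2w, and 9.45, 9.90, and 9.90 in control mice. Each Δ1w mouse lay above each control mouse, but Δ1w replicate 1 was below the other 2 Δ1w mice and lay within the range of Δ2w mice. The difference was 0.75 against control (0.21 to 1.30, adjusted p = 0.179, limma) and 0.71 against Δ2w (0.17 to 1.25, adjusted p = 0.478). Without Δ1w replicate 1 it was 1.003 against control and passed (adjusted p = 0.0455). That mouse also differed from the other 2 in clock genes and in the prefix of its sample name, which the other 2 share. These 2 features of the mouse cannot be told apart. An index of 14 circadian genes was 0.33, −0.80, and −1.21 in Δ1w replicates 1, 5, and 8, and lay between 0.08 and 0.72 in the 6 other mice. Of these 14 genes, 8 had an unadjusted p under 0.05 in Δ1w against control muscle (14% of all rows, limma). The index thus partly follows the group, and a fit with the index cannot fully separate the 2. With the index as a covariate the *Gabarapl1* difference was 0.45 (adjusted p = 0.749) and that of *Sqstm1* was 0.77 (adjusted p = 0.326).

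*Gabarapl2* (GATE-16) lay on the other side of 0. Its log2 signals were 9.58, 9.51, and 8.99 in Δ1w, 9.89, 9.70, and 10.11 in Δ2w, and 10.07, 9.90, and 9.54 in control mice. All 3 Δ1w mice lay below all Δ2w mice, whereas Δ1w replicate 1 overlapped control replicate 6. The difference was −0.48 against control (−0.94 to −0.02, adjusted p = 0.342, limma), or −0.29 without Δ1w replicate 8, and −0.54 against Δ2w (adjusted p = 0.53). *Gabarap*, the founding member of its family, had 15.83, 15.68, and 15.65 in Δ1w, 15.37, 15.66, and 15.77 in Δ2w, and 15.48, 15.49, and 15.49 in control mice. Each Δ1w mouse was above each control mouse, by 0.23 on average (−0.12 to 0.59).

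The LC3 genes, whose lipid-bound protein is the usual marker of autophagosomes, overlapped between Δ1w and control mice. *Map1lc3a* had 12.62, 12.18, and 11.97 in Δ1w, 12.07, 11.74, and 12.29 in Δ2w, and 12.55, 12.33, and 12.44 in control mice. Each Δ2w mouse was below each control mouse, with a difference of −0.40 (−0.86 to 0.05, adjusted p = 0.704, limma) that was −0.26 without Δ2w replicate 3, while Δ1w mice spanned the controls at −0.18. *Map1lc3b* had 12.13, 12.46, and 11.84 in Δ1w, 12.08, 12.30, and 12.25 in Δ2w, and 12.17, 12.14, and 12.34 in control mice, and its differences were −0.07 in Δ1w and −0.01 in Δ2w muscle.

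**Figure D2:**
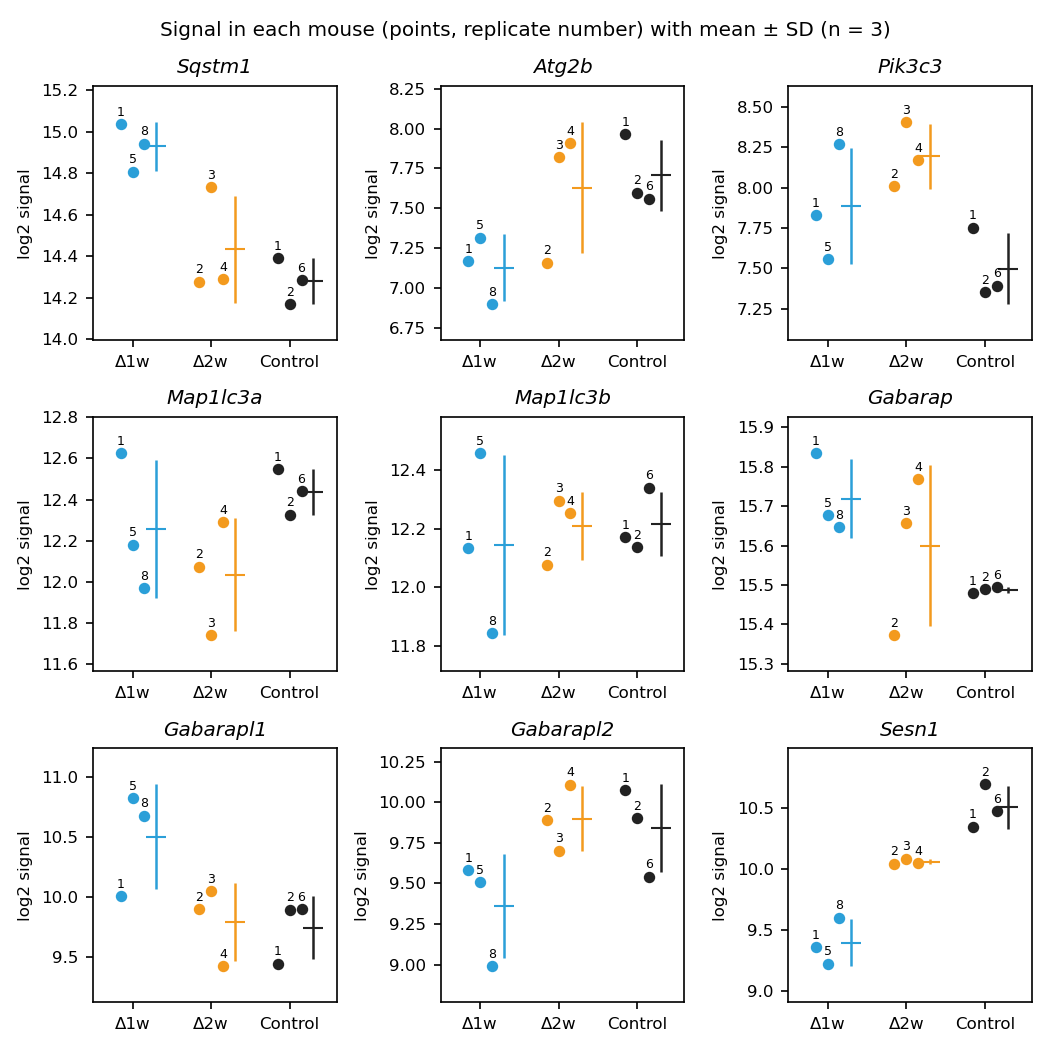
Log2 signal in each mouse (points, numbered by replicate) with mean and SD (n = 3) for 8 autophagy genes and *Sesn1*, in Δ1w, Δ2w, and control muscle from left to right. Each panel has its own axis, which does not start at 0. *Sqstm1* in Δ1w mice (14.81 to 15.04) lies above all other mice, and *Gabarapl1* separates Δ1w replicate 1 (10.01) from replicates 5 and 8.

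Upstream of the ATG8 proteins, the 5 genes of the ULK1 complex gave 0 calls, with 4 of the 5 below 0 in Δ1w muscle. *Ulk1*, the initiating kinase, had 9.15, 9.09, and 8.66 in Δ1w, 8.92, 9.19, and 8.73 in Δ2w, and 8.93, 8.69, and 8.31 in control mice, and the groups overlapped (differences 0.32 and 0.30, or 0.16 and 0.14 without control replicate 6). Its relative *Ulk2* had 11.93, 12.03, and 11.86 in Δ1w, 12.31, 12.49, and 12.13 in Δ2w, and 11.83, 12.08, and 12.25 in control mice. All Δ1w mice lay below all Δ2w mice for *Ulk2* (difference −0.37, adjusted p = 0.611, limma), with controls overlapping both. *Rb1cc1* (FIP200, the scaffold of the complex) had 11.60, 11.22, and 10.68 in Δ1w, 11.53, 11.54, and 11.66 in Δ2w, and 11.68, 11.42, and 11.58 in control mice. Δ1w replicate 8 had the lowest signal of the 9, and the difference of −0.40 against control was −0.15 without that mouse and 0.03 with the clock index as a covariate. *Atg13*, an adaptor of the kinase, had 5.65, 5.43, and 5.32 in Δ1w, 5.69, 5.79, and 5.64 in Δ2w, and 5.86, 5.80, and 5.89 in control mice, all below the negative control median of their array, and its difference of −0.39 in Δ1w muscle was −0.20 with the clock index. *Atg101*, the partner of ATG13, differed by −0.27 in Δ1w and −0.09 in Δ2w muscle, and Δ1w replicate 1 (9.23) stood apart from replicates 5 and 8 (8.32 and 8.37).

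In the lipid kinase complex, *Pik3c3*, which encodes the catalytic subunit VPS34, had 7.83, 7.56, and 8.27 in Δ1w, 8.01, 8.41, and 8.17 in Δ2w, and 7.75, 7.35, and 7.39 in control mice. Each Δ2w mouse lay above each control mouse, and the Δ1w mice overlapped both. The difference between Δ2w and control was 0.70 (0.23 to 1.16, unadjusted p = 0.00674, adjusted p = 0.519, limma), and against the 2 controls that share a name prefix with the Δ2w mice it was 0.62 (adjusted p = 0.496). *Atg14*, which directs the complex to autophagy, had 6.18, 5.76, and 6.33 in Δ1w, 6.84, 6.61, and 6.39 in Δ2w, and 6.11, 6.64, and 6.04 in control mice. Δ1w mice lay below Δ2w mice (difference −0.52, −0.999 to −0.04, adjusted p = 0.564) without overlap, near the background of the array, and the difference was −0.87 with the LacZ allele as a covariate. *Becn1* (Beclin 1) differed by 0.13 in Δ1w and −0.08 in Δ2w muscle.

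Among genes of membrane supply, *Atg2b*, which encodes a lipid transfer protein, had 7.17, 7.32, and 6.90 in Δ1w, 7.16, 7.82, and 7.91 in Δ2w, and 7.96, 7.60, and 7.56 in control mice. Each Δ1w mouse was below each control mouse, and Δ2w replicate 2 lay with the Δ1w mice. The difference was −0.58 against control (−1.07 to −0.09, adjusted p = 0.265, limma) and −0.50 against Δ2w (adjusted p = 0.586). Its paralog *Atg2a* lay on the other side of 0, at 0.29 in Δ1w and 0.22 in Δ2w muscle. *Wipi1*, which reads the lipid made by VPS34, had 10.63, 10.38, and 10.12 in Δ1w, 10.07, 9.94, and 10.05 in Δ2w, and 9.95, 10.15, and 9.90 in control mice. Δ1w replicates 1 and 5 lay above all others and replicate 8 within the controls (difference 0.38, −0.00 to 0.76, adjusted p = 0.364, or 0.25 without replicate 1), while *Wipi2* differed by 0.02 in Δ1w and 0.14 in Δ2w muscle. *Atg9a*, the transmembrane scramblase, had 13.82, 13.50, and 13.70 in Δ1w, 13.58, 13.74, and 13.85 in Δ2w, and 13.82, 14.08, and 13.87 in control mice. Δ1w mice were below the controls by a narrow margin, with a difference of −0.25, or −0.17 without Δ1w replicate 5. *Atg9b*, at the background, differed by 0.27 in Δ1w and 0.06 in Δ2w muscle.

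The 11 genes of the 2 conjugation chains gave 0 calls, 1 unadjusted p under 0.05 in Δ1w against control and 0 in the other 2 comparisons. *Atg4c*, a protease that trims ATG8 proteins, had 7.51, 7.09, and 7.35 in Δ1w, 7.73, 7.45, and 7.63 in Δ2w, and 7.58, 8.15, and 7.61 in control mice. Δ1w mice lay below the controls, narrowly for replicate 1, by −0.46 (−0.90 to −0.03, adjusted p = 0.326, limma) or −0.28 without control replicate 2. *Atg16l1*, which places the conjugating complex on the membrane, had 7.59, 7.46, and 7.82 in Δ1w, 7.48, 7.47, and 7.61 in Δ2w, and 7.38, 7.79, and 8.41 in control mice. Control replicate 6 was the highest of the 9, and the differences of −0.24 in Δ1w and −0.34 in Δ2w muscle became 0.04 and −0.06 without it. *Atg12*, the ubiquitin-like protein joined to ATG5, had 9.58, 9.58, and 9.72 in Δ1w, 9.98, 9.90, and 9.55 in Δ2w, and 9.58, 9.56, and 9.73 in control mice, and its differences were 0.00 and 0.18.

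*Atg7*, the activating enzyme of both chains, differed by 0.24 in Δ1w and 0.04 in Δ2w muscle, *Atg3* and *Atg10*, the conjugating enzymes of the ATG8 and ATG12 chains, by 0.11 and −0.28 in Δ1w and by −0.14 and −0.13 in Δ2w muscle, and *Atg5*, the partner of ATG12, by −0.17 and −0.02. The other ATG8 proteases were *Atg4a* at 0.06 and 0.18, *Atg4b* at −0.18 and −0.15, and *Atg4d* at 0.33 and −0.02 in Δ1w and Δ2w muscle. *Atg16l2*, a relative of *Atg16l1*, had the widest interval of the 38, at −0.45 (−1.15 to 0.24) in Δ1w muscle, where replicates 1 and 5 read 7.56 and 8.94.

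At the lysosome, *Ctsl*, which encodes a protease of the lumen, had 11.83, 12.37, and 11.78 in Δ1w, 11.83, 11.74, and 11.71 in Δ2w, and 11.53, 11.70, and 12.04 in control mice. Only Δ1w replicate 5 stood above the controls, and the difference of 0.24 was 0.05 without that mouse. The membrane glycoproteins *Lamp1* and *Lamp2* differed by 0.13 and −0.21 in Δ1w and by 0.02 and −0.13 in Δ2w muscle. *Tfeb*, the transcription factor that switches on lysosomal and autophagy genes, differed by −0.11 (−0.60 to 0.38) in Δ1w and −0.15 (−0.63 to 0.34) in Δ2w muscle.

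The DNA upstream of the genes was read for the motifs of 3 factors known to act on autophagy genes, in the 250 bases before the start that the RefSeq promoter table lists for each gene (GRCm38.p6), which were at hand for 31 of the 38 genes. The table gives 1 start a gene, and 14 of the 31 windows, those of *Atg5*, *Atg7*, and *Ctsl* among them, reached into the annotated span of their own gene. The E-box CACGTG, the core of the element that TFEB binds, occurred in 6 of the 31 (19.4%), against 6.05% of 27025 such windows. These windows were those of every gene in the promoter table, measured on the array or not, and were not matched to the 31 for signal or base content. The FOXO motif GTAAACA, read on both strands, occurred in 0 of the 31, against 3.09% of windows. The antioxidant response motif TGACNNNGC of NRF2, on both strands, occurred in 2 (*Atg13* and *Ulk2*, 6.45%), against 10.1% of windows. The E-box stretches of *Atg3*, *Bnip3*, and *Lamp1*, which lie outside the gene's span, are shown because they hold the letters that TFEB is known to recognise, with the E-box in capitals. They lie at chr16:45158715-45158783, plus strand (*Atg3*), chr7:138909589-138909634, minus strand (*Bnip3*), and chr8:13159080-13159160, plus strand (*Lamp1*).
Atg3: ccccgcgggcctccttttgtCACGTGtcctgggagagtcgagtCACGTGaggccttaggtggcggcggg
Bnip3: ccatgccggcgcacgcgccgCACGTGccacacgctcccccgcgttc
Lamp1: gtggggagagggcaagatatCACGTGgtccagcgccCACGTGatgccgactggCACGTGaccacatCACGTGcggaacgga
*Lamp1* has 4 E-boxes and *Atg3* has 2. A match describes letters, not a bound site. The 6 genes (*Atg3*, *Atg5*, *Atg7*, *Bnip3*, *Ctsl*, and *Lamp1*) differed by 0.11, −0.17, 0.24, 0.20, 0.24, and 0.13 in Δ1w muscle and by −0.14, −0.02, 0.04, 0.12, 0.00, and 0.02 in Δ2w muscle, in that order, and 0 of them had an unadjusted p under 0.05.

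Only the letters given above were searched, within 250 bases, so other spellings of a motif and more distant sites were not covered. In that search, the windows of the 2 genes that lay highest in Δ1w muscle held none of these 3 motifs. They are printed for comparison with the E-box genes, *Sqstm1* from chr11:50210821-50211070, minus strand and *Gabarapl1* from chr6:129532942-129533191, plus strand, and the *Sqstm1* window is the richer in G and C (63.2% against 46.8%).
Sqstm1: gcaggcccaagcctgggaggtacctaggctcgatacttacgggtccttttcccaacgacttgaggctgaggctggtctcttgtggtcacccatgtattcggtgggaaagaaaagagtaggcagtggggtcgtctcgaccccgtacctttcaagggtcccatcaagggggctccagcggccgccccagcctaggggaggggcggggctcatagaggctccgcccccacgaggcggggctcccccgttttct
Gabarapl1: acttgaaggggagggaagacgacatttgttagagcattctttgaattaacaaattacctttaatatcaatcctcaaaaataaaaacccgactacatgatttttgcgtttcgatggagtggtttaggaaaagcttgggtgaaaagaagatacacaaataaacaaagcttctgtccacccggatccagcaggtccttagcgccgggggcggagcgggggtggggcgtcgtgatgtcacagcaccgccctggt

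Counted gene by gene, 9 of the 38 had Δ1w and control mice that did not overlap (23.7%, against 17.5% of all rows), 4 higher and 5 lower in Δ1w (8.53% and 8.95% of all rows). Between Δ2w and control mice 3 did not overlap (7.89%, against 14.8%), *Pik3c3* higher and *Atg13* and *Map1lc3a* lower in Δ2w (7.52% and 7.25% of all rows). *Atg13* is in both of these counts, and *Atg9b* is among the 4 higher in Δ1w. Both genes lay below the negative control median on all 9 arrays, so their separation cannot be read as a difference in a detected transcript. Between the 2 models 6 did not overlap (15.8%, against 14.2%), with *Atg3*, *Sqstm1*, and *Wipi1* higher and *Atg14*, *Gabarapl2*, and *Ulk2* lower in Δ1w (7.2% and 6.97% of all rows). Counted mouse by mouse, 21, 25, and 22 of the 38 genes lay outside the range of the 3 controls in Δ1w replicates 1, 5, and 8 (55.3, 65.8, and 57.9%, against 52.6, 58.4, and 57.6% of all rows). In Δ2w replicates 2, 3, and 4 there were 16, 18, and 12 (42.1, 47.4, and 31.6%, against 49.1, 48.9, and 51.6%).

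**Figure D3:**
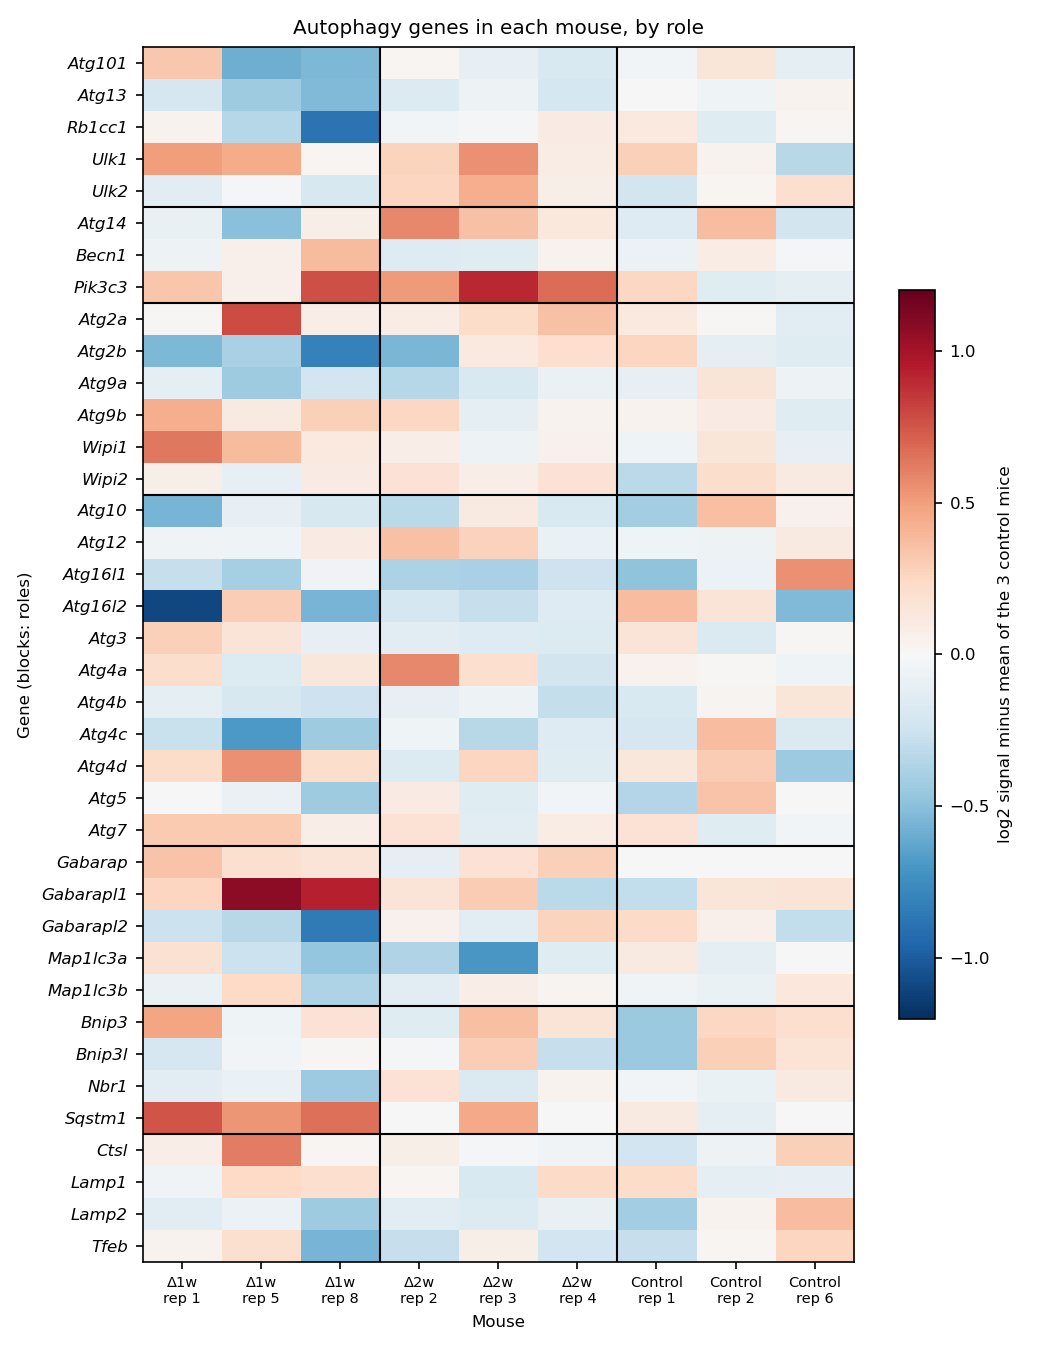
Log2 signal of each autophagy gene in each mouse minus the mean of the 3 control mice (red above, blue below), with genes in blocks by role and Δ1w, Δ2w, and control mice from left to right. *Sqstm1* is red in all 3 Δ1w mice, and *Gabarapl1* is strongest in Δ1w replicates 5 and 8. *Pik3c3* is red in all 3 Δ2w mice.

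Genes around the pathway were examined through 4 further lists, whose counts stand beside 14, 7.47, and 8.29% of all rows at an unadjusted p under 0.05 (9.7, 7.57, and 6.94% by the *t*-test) in the 3 comparisons. Of 27 other autophagy genes, 0 passed in any of the 3 comparisons (limma; 3, 0, and 5 at an unadjusted p under 0.05 in Δ1w against control muscle, in Δ2w against control muscle, and between Δ1w and Δ2w muscle, and 1, 0, and 3 by the *t*-test). *Retreg1*, the receptor that delivers endoplasmic reticulum to autophagosomes, had 15.08, 14.44, and 14.97 in Δ1w, 13.72, 14.36, and 14.07 in Δ2w, and 13.39, 14.17, and 13.98 in control mice. All 3 Δ1w mice lay above all others (difference from control 0.98, 0.43 to 1.53, adjusted p = 0.0851), and it passed only with a trended and robust variance (adjusted p = 0.0347). The cargo adaptors *Calcoco1* and *Tax1bp1* differed by −0.87 (adjusted p = 0.198) and −0.42 (adjusted p = 0.33) in Δ1w muscle, and by −0.27 (adjusted p = 0.874) and −0.16 (adjusted p = 0.901) with the clock index.

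Of 24 lysosomal hydrolases and membrane proteins, 0 passed in any comparison (limma; 4, 2, and 4 at an unadjusted p under 0.05, and 1, 1, and 4 by the *t*-test, in the same order of comparisons). *Hexa*, a subunit of the enzyme that breaks down gangliosides, had 10.87, 11.64, and 11.81 in Δ1w, 11.34, 10.88, and 11.01 in Δ2w, and 10.78, 10.08, and 10.60 in control mice. Every Δ1w and Δ2w mouse lay above every control mouse, and the difference was 0.95 (adjusted p = 0.114) for Δ1w and 0.59 (adjusted p = 0.669) for Δ2w. Without Δ1w replicate 1 the Δ1w difference was 1.23 and passed (adjusted p = 0.0222), and with the clock index it was 0.52 (adjusted p = 0.699). *Gla* and *Gm2a*, also of glycolipid breakdown, differed by 0.69 and 0.49 in Δ1w muscle without passing. Of 16 subunits of the V-ATPase, the pump that acidifies lysosomes, 0 passed (1, 1, and 0 at an unadjusted p under 0.05, and 0, 1, and 0 by the *t*-test). Their differences in Δ1w muscle ran from −0.49 for *Atp6ap1* to 0.22 for *Atp6v0a2*, and *Atp6v1e1* was at −0.21. They were −0.27 for *Atp6ap1* without control replicate 6, 0.07 for *Atp6v0a2* without Δ1w replicate 8, and −0.07 for *Atp6v1e1* without Δ1w replicate 5.

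Upstream regulators were the list with calls. Of 30 genes of mTORC1, AMPK, FoxO, and the MiT factors, 2 fell (against 0.5% of all rows that fell) and 0 rose in Δ1w muscle. The median difference was −0.12. At an unadjusted p under 0.05 there were 11 (against 14% of all rows), 3 higher and 8 lower, and 9 by the *t*-test (against 9.7%). The 3 higher were *Mtor* (0.70, adjusted p = 0.116, limma), *Sesn3* (0.70, adjusted p = 0.204), and *Lamtor1* (0.42, adjusted p = 0.329). In Δ2w against control and Δ1w against Δ2w muscle 0 passed (5 and 6 at an unadjusted p under 0.05, 2 and 4 by the *t*-test). *Sesn1*, a sestrin that restrains mTORC1 under stress, had 9.36, 9.23, and 9.60 in Δ1w, 10.05, 10.09, and 10.05 in Δ2w, and 10.35, 10.70, and 10.47 in control mice. The 3 groups did not overlap, with Δ1w lowest and Δ2w between. In Δ1w muscle *Sesn1* fell by 1.11 log2 units (−1.48 to −0.74, adjusted p = 0.00858, limma), and its difference was −0.45 for Δ2w against control (adjusted p = 0.598) and −0.66 between the models (adjusted p = 0.329). With the clock index as a covariate its difference was −1.21 and did not pass (adjusted p = 0.103). Nor did it pass by the *t*-test (adjusted p = 0.312), which called 0 of all rows.

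*Prkag3*, the AMPK subunit found in fast fibers, had 8.43, 9.12, and 8.40 in Δ1w, 9.63, 9.85, and 8.88 in Δ2w, and 9.84, 10.16, and 10.53 in control mice. Δ1w mice lay below all controls and Δ2w replicate 4 lay with the Δ1w mice. It fell by 1.53 in Δ1w muscle (−2.15 to −0.90, adjusted p = 0.0244, limma), and the call was lost without control replicate 2 (adjusted p = 0.0773), control replicate 6 (0.0847), or Δ1w replicate 8 (0.0988). It was also lost with a random block for the name prefix (adjusted p = 0.0515) and with the clock index (0.253). By the *t*-test, which called 0 of all rows, the adjusted p was 0.382. No Δ1w mouse shares a prefix with a control mouse. *Stk11* (LKB1), the kinase upstream of AMPK, had 12.36, 12.33, and 12.50 in Δ1w, 12.84, 13.07, and 12.84 in Δ2w, and 12.98, 12.86, and 13.14 in control mice. All Δ1w mice lay below all others, with a difference from control of −0.60 (−0.95 to −0.25, adjusted p = 0.0991, limma). It passed among rows with a mean of at least 6 (adjusted p = 0.0485) and with a trended and robust variance (0.04).

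Markers of other cells also differed between the groups. All 7 fibroblast and matrix genes measured had a difference above 0 in Δ1w against control muscle, from 0.81 for *Col1a1* to 1.43 for *Dpt*. Each had an unadjusted p under 0.05 (14% of all rows). *Dpt* alone rose (adjusted p = 0.027, limma), where 1.41% of all rows were called. The *Dpt* call was lost without control replicate 1 (adjusted p = 0.0855) or 2 (0.0857) and without Δ1w replicate 5 (0.114) or 8 (0.0962). It was also lost in a fit of the compared groups only (0.0572) and with the clock index (0.287). By the *t*-test, which called 0 of all rows, the adjusted p was 0.413. The mean log2 signal of these 7 genes was 15.11 to 16.25 in Δ1w, 14.85 to 15.46 in Δ2w, and 14.40 to 15.07 in control mice. Of 11 macrophage genes, 9 had a difference above 0 in Δ1w muscle and 3 an unadjusted p under 0.05 (14% of all rows, limma). *Csf1r* was at 0.99 (adjusted p = 0.0615, or 0.0264 without Δ1w replicate 1). The list mean was 8.50 to 8.79 in Δ1w, 8.31 to 8.59 in Δ2w, and 7.99 to 8.34 in control mice. Median differences in Δ1w muscle were −0.20 over 7 endothelial, −0.00 over 6 pericyte and smooth muscle, 0.85 over 6 adipocyte, 0.18 over 4 Schwann cell, and −0.31 over 7 satellite cell genes, and the 1 erythroid gene, *Alas2*, was at 0.26. Standard errors of the adipocyte genes reached 0.90, and for 0 of these 6 genes were Δ1w and control mice without overlap (17.5% of all rows). The part of all these cell types in the autophagy, lysosomal, and regulator values was not tested.

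**Figure D4:**
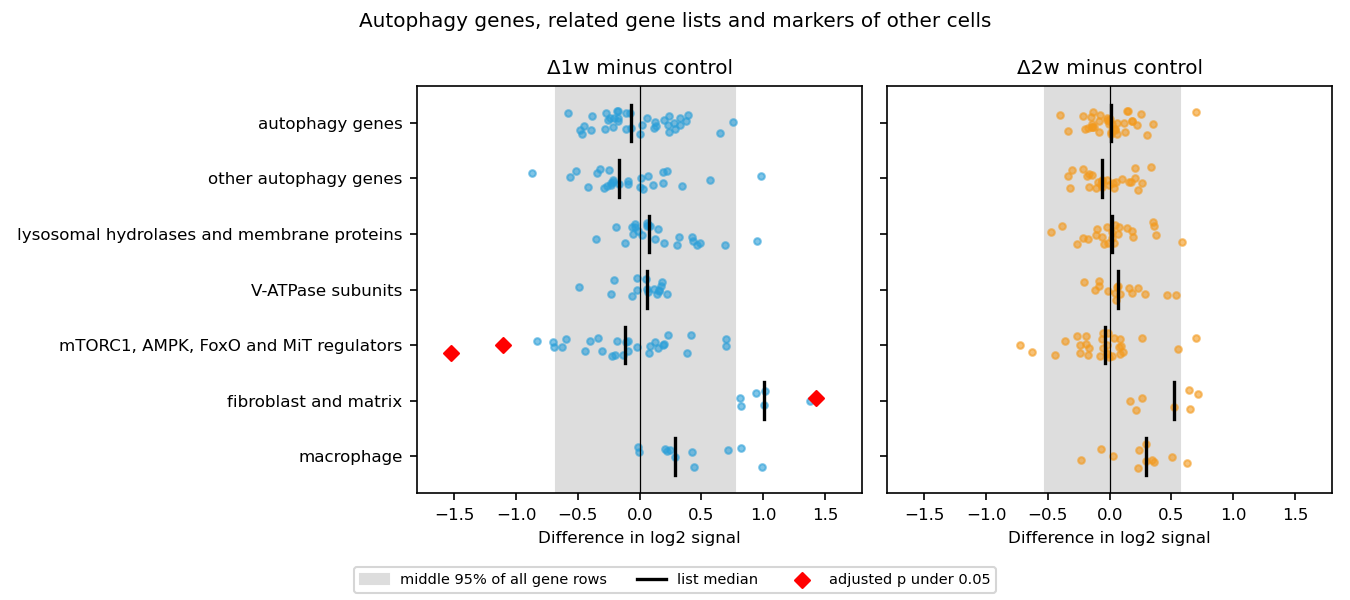
Difference in log2 signal from control for the 38 autophagy genes, 4 related lists, and 2 marker lists, in Δ1w (left) and Δ2w (right) muscle. Each point is a gene, black bars are list medians, red diamonds passed an adjusted p of 0.05, and the grey band holds the middle 95% of all 22206 gene rows. *Sesn1* (−1.11), *Prkag3* (−1.53), and *Dpt* (1.43) are the red points.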

How the data were processed

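The authors scanned 9 Clariom S Mouse arrays (1 per mouse, no pooling) and deposited log2 signals made by sst-rma, which corrects background, normalizes across arrays, and gives 1 value per gene. The submitters' notes name Affymetrix Expression Console, and the value table was exported from Transcriptome Analysis Console 4.0.0.25. Sources used here do not name the genome build of the probes. Of 28846 rows, 6640 control rows were left out. Of 22206 gene rows, 19572 carry 1 symbol in the platform annotation. Each autophagy gene had 1 row.

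From these values 1 linear model with a mean per group was fitted using lmFit and eBayes of limma 3.58.1 in R 4.3.3, with Benjamini-Hochberg adjustment over all gene rows, and a gene was called at an adjusted p under 0.05. Confidence intervals of 95% come from the same moderated fit. The fit was tested on simulated data. The limma p-values set a difference of means against a spread between mice that is pooled over the 3 groups and moderated over all gene rows. There were 3 mice per group, and the number of arrays limits their precision. The autophagy genes and the other lists were chosen with earlier results of these data known. Values for all mice are given for the 8 genes with the smallest p in each comparison, the leading gene of each role, and the 5 ATG8 proteins, with up to 3 genes from each further list besides any called. Marker genes are given by list. Lists held 27 of 30, 24 of 29, 16 of 17, and 30 of 31 measured genes. Motifs were searched in RefSeq promoter sequences. Python 3.11.15 with matplotlib 3.10.9 drew the figures. Alternatives were leaving out each mouse, array weights, quantile normalization, a variance with trend and robust estimation, median centring, a fit of the compared groups only, rows with a mean of at least 6 only, a clock index or the LacZ allele as covariate, the mean over rows of a symbol, a block for the name prefix or 1 prefix only, a 2-fold change at an unadjusted p under 0.05 as the rule, and the methods' unpaired *t*-test.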

Additional observations from a re-analysis of the deposited data

How the results depend on the processing

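The count of autophagy genes called in Δ1w against control muscle was 0 and ranged from 0 to 1 when a mouse was left out, with *Gabarapl1* called without Δ1w replicate 1. It was 1 (*Sqstm1*) with a trended and robust variance, which also called 1 other autophagy gene (*Retreg1*). For Δ2w against control and Δ1w against Δ2w it was 0 in all alternatives run. At an unadjusted p under 0.05 the number of the 38 ranged over the alternatives from 3 (without Δ1w replicate 8, among others) to 8 (without Δ1w replicate 1) for Δ1w against control, from 1 to 2 for Δ2w against control, and from 2 (without Δ2w replicate 2 or 4, among others) to 6 for Δ1w against Δ2w. The count over all 22206 rows moved too. For Δ1w against control it was 3106 in the main fit, 2637 without Δ1w replicate 8, and 3765 without Δ1w replicate 1. For Δ1w against Δ2w it was 1841 in the main fit, and 1485 and 1550 without Δ2w replicates 2 and 4. The count of lysosomal genes ranged from 0 to 1 without a mouse (*Hexa*, without Δ1w replicate 1). The 2 regulators that fell in Δ1w muscle became 1 with the prefix block, 0 with the clock index, and 1 to 3 without a mouse. They became 0 by the *t*-test, which called 0 of all rows.

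Among the autophagy genes whose values are given for every mouse, the ones refitted singly, differences in Δ1w muscle that changed sign were *Map1lc3a* (0.10), *Rb1cc1* (0.028), and *Map1lc3b* (0.047) with the clock index, *Map1lc3b* (0.026) with the LacZ allele as a covariate, and *Atg12* with median centring (−0.038) and array weights (−0.0024). Without a mouse they ranged from −0.29 to 0.015 for *Atg14*, −0.48 to 0.040 for *Atg16l1*, −0.044 to 0.057 for *Atg12*, and −0.23 to 0.079 for *Map1lc3b*. The cause was not tested. Over all genes, 312 were called in Δ1w against control muscle, 653 without Δ1w replicate 1, 104 without Δ1w replicate 5, and 25 with the clock index.

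The labels give no pairing of mice across groups, so no paired analysis was made. All 3 Δ2w mice and 2 control mice share a name prefix. Within Δ1w, replicates 5 and 8 share a prefix that replicate 1 does not have. No Δ1w mouse shares a prefix with a control or Δ2w mouse. In both comparisons of Δ1w mice, an effect of the group and one of the prefix therefore cannot be told apart. Depth here is signal over background, which leaves *Atg9b* and *Atg13* unread. With 3 mice a group, the intervals do not reach 2-fold for most genes and leave smaller differences unresolved. The arrays measure transcripts, not proteins or flux.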
